A study of Mus musculus with 20 samples.

Results

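All 20 RNA sequencing libraries of mouse ear tissue were used to ask whether SB415286, a small-molecule inhibitor of the kinase GSK3, moved the same genes in each of 2 mouse models. The labels call the models ACD and AD and do not spell the names out. The 4 groups of 5 libraries were ears of ACD model mice injected with SB415286 at 2 mg/kg, ears of ACD controls, ears of AD model mice injected at 0.7 mg/kg, and ears of AD controls. All mice were C57BL/6, 6 to 7 weeks old, with no engineered allele named, and ears were taken 4 h after injection into the abdominal cavity. The doses by model follow the sample labels and series description, whereas the treatment protocol names AD mice for both. Controls are untreated mice by their sample labels but vehicle-injected ones by the series description. Each model came in its own table, and all 18835 genes found in both tables were taken, from 19501 genes in the ACD table and 19234 in the AD table. Of these, 15700 had enough reads to be tested. The SB415286 effect is the log2 ratio of injected over control libraries within a model, and the difference between models is the ACD effect minus the AD effect. Model, dose and table all change together here and cannot be told apart.

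GSK3 phosphorylates glycogen synthase, which it restrains, and beta-catenin, which it marks for destruction within a complex built on Axin and APC. Its inhibition therefore releases Wnt target genes in many cell types. GSK3 also restrains NRF2, the activator of antioxidant genes, and acts on NF-kB dependent transcription. In skin, Wnt signalling is best known for its role in the hair follicle.

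Library totals were 19.4 to 20.2 M expected counts (M, 1e6) with SB415286 and 18.8 to 20.1 M in controls of the ACD model, and 18.2 to 20.9 M and 19.7 to 20.6 M in the AD model. Values that were not whole numbers made up 56.5% to 63.4% of all expected counts, zeros included, in ACD libraries and 33.1% to 35.2% in AD libraries, and levels were compared only within a model. Keratinocyte, fibroblast and endothelial markers were present in every group. Cartilage, skeletal muscle, adipocyte and nerve sheath markers were present as well, while Krt31, Krt35, Krt85, Matn1, Trac and Ms4a1 did not reach the read filter. Of the 20 libraries, 3 were singled out. AD control 6 correlated more with SB415286 libraries of its model (median r 0.977) than with the other controls (0.965), for AD SB415286 library 7 the values were near equal (0.954 with its own group and 0.952 with controls), and ACD SB415286 library 5 held the most reads of the lung transcripts described next. All 5 ACD SB415286 libraries also correlated slightly more with the ACD controls (0.978 to 0.986) than with each other (0.976 to 0.984). Counts below are given with and without them. Values per library are listed by library number, which is 3, 4, 5, 7 and 8 for ACD SB415286, 1, 3, 4, 5 and 6 for ACD controls, 2, 3, 4, 6 and 7 for AD SB415286, and 1, 2, 4, 5 and 6 for AD controls. The mice or cages behind the libraries are not named, so p-values measure the spread between these libraries.

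The SB415286 effect differed between the models for 8 genes, 0.051% of those tested, by edgeR's quasi-likelihood test of the interaction with Benjamini-Hochberg adjustment over all 15700 genes. The difference was positive for Sftpb, Sftpc, Scgb1a1, Gpc1 and Sox9 (0.0318% of all genes) and negative for Dynlt1c, 4931406C07Rik and Osbpl9 (0.0191%). For the 3 lung genes the ACD effect was the larger and passed by itself, and for the other 5 genes the AD effect did. A gene is called, or passes, at an adjusted p under 0.05. An unadjusted p under 0.05 was reached by 1975 genes (12.6%). The genes that fell just short, at an adjusted p = 0.0549, included Rab11fip4, Atp2b1, Ctsh, Epas1, C2, Zfp651 and Phospho1.

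Sftpb, Sftpc and Scgb1a1 encode surfactant proteins B and C and the secretoglobin of airway club cells, and are known as transcripts of lung epithelium rather than of ear. Sftpb (chr6:72304610-72314373, Entrez Gene 20388, GRCm38.p6) was at 4.50, 6.23, 9.46, 6.33 and 5.30 counts per M of the TMM-scaled library total (CPM) in ACD SB415286 libraries, against 0.749, 0.452, 0.864, 0.810 and 0.503 CPM in ACD controls. In the AD model it was at 1.27, 1.35, 2.55, 2.84 and 2.85 CPM with SB415286, against 1.38, 2.49, 1.58, 2.15 and 3.09 CPM in controls. Every injected ACD library lay above every ACD control, while the AD groups overlapped throughout. On the log2 scale the effect was 3.23 ± 0.31 in ACD and 0.02 ± 0.28 in AD ears (SE, n = 5 per group), a difference of 3.20 ± 0.42 (adjusted p = 0.00439 by edgeR). Sftpc (chr14:70520941-70524081, 20389) was at 2.40, 1.70, 12.2, 3.59 and 4.50 CPM in ACD SB415286 libraries, against 0, 0.0502, 0.0540, 0.0506 and 0.0503 CPM in ACD controls. AD SB415286 libraries held 0.331, 0.193, 0.0510, 0.155 and 0 CPM of Sftpc, against 0, 0.178, 0.384, 0.293 and 0.190 CPM in AD controls. It was thus close to 0 in 3 of the 4 groups, and its counts were 459 summed over the 5 ACD SB415286 libraries and 4 over the ACD controls, with 14 and 22 over the matching AD groups, and its difference was 7.23 ± 1.2 (adjusted p = 0.0274). Scgb1a1 (chr19:9083642-9087956, 22287) was at 3.60, 2.98, 21.2, 6.93 and 7.36 CPM in ACD SB415286 libraries, against 0.300, 0.0502, 0.0540, 0.203 and 0.201 CPM in ACD controls. In AD ears it was at 0.110, 0.433, 0.918, 0.724 and 0.0919 CPM with SB415286, against 0.237, 0.579, 0.864, 1.85 and 1.24 CPM in controls. The ACD groups did not overlap and the AD groups did, and Scgb1a1 differed by 6.70 ± 1.00 (adjusted p = 0.0146). ACD SB415286 library 5 alone was at 12.2 CPM for Sftpc and 21.2 CPM for Scgb1a1, above the other injected libraries of its group. Without that library and both AD libraries singled out, the differences were 2.96 for Sftpb, 6.25 for Sftpc and 5.62 for Scgb1a1, all past the threshold.

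Of 20 lung epithelium genes in the list, 12 had enough reads to be tested, and these 3 were the members called for the difference. The mean level of the list, in log2(CPM + 0.5), was 3.82 to 4.33 in ACD SB415286 libraries and 3.22 to 3.41 in ACD controls, with 2.91 to 3.28 and 3.22 to 3.38 in the AD model. Cyp2f2, a cytochrome P450 of club cells that ear tissue also expressed, was the 1 member called lower for the AD effect (-0.83 ± 0.17, adjusted p = 0.00912), and in ACD it was at -0.23 ± 0.17. Whether lung RNA reached these ear libraries was not tested.

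**Figure D1:**
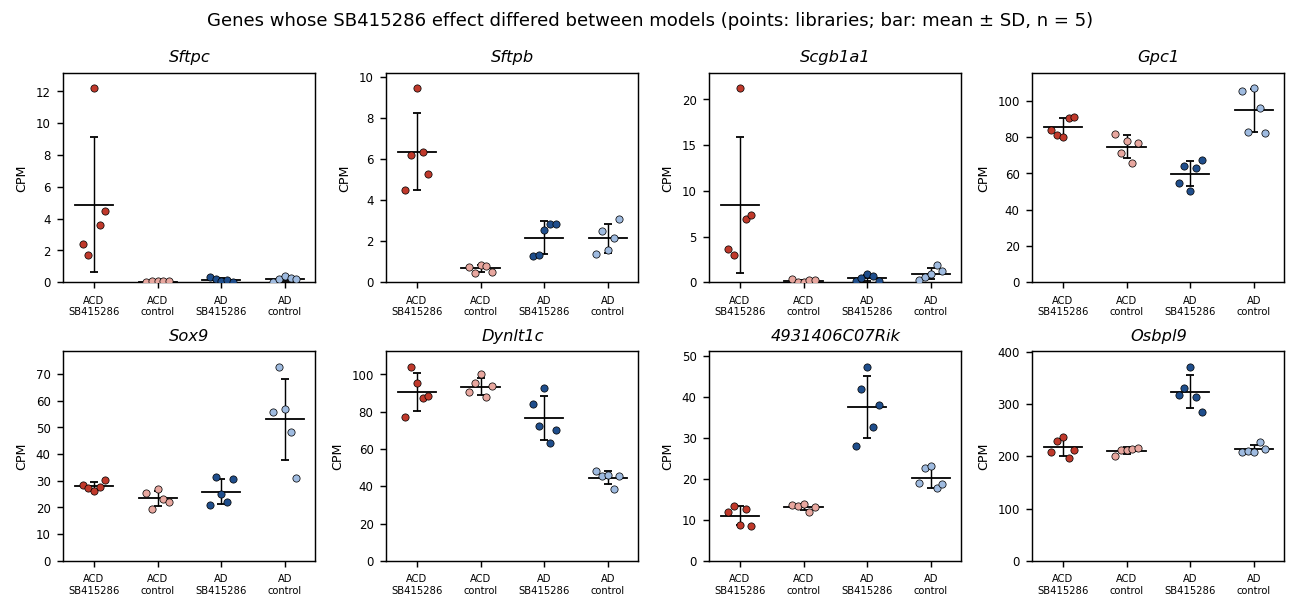
Normalised level (CPM, linear axes from 0) of the 8 genes whose SB415286 effect differed between the models, for each library (points) with the mean and SD of 5 libraries (bars). The 3 lung transcripts were high in ACD SB415286 libraries, whereas Gpc1 and Sox9 were lower, and Dynlt1c, 4931406C07Rik and Osbpl9 higher, in AD SB415286 libraries than in AD controls.

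Gpc1 (chr1:92831645-92860211, 14733) encodes glypican-1, a heparan sulphate proteoglycan of the cell surface that binds growth factors. It was at 83.7, 81.3, 80.0, 90.3 and 91.2 CPM in ACD SB415286 libraries, against 81.7, 71.1, 78.0, 65.9 and 77.0 CPM in ACD controls. In AD ears it was at 54.7, 63.9, 50.4, 63.3 and 67.3 CPM with SB415286, against 105, 83.1, 107, 95.9 and 82.5 CPM in controls. All 5 injected AD libraries lay below all 5 AD controls, and the ACD groups overlapped. The effect was 0.19 ± 0.09 in ACD and -0.66 ± 0.09 in AD ears, and the difference of 0.85 ± 0.13 passed (adjusted p = 0.0146, edgeR). It stayed past the threshold in 19 of the 20 fits that left out a library.

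Sox9 (chr11:112782210-112787757, 20682), the transcription factor of chondrocytes that is also used by hair follicle stem cells, also differed. Its levels were 28.5, 27.5, 26.2, 27.6 and 30.3 CPM in ACD SB415286 libraries, against 25.4, 19.5, 26.8, 23.2 and 22.1 CPM in ACD controls. AD libraries held 20.9, 31.3, 25.0, 22.02 and 30.6 CPM with SB415286, against 55.8, 72.8, 56.8, 48.5 and 31.1 CPM in controls. AD control 6 was the lowest control and lay just under the highest injected library, so the AD groups overlapped through it, and the ACD groups overlapped as well. The difference was 1.29 ± 0.23 (adjusted p = 0.0495, edgeR) and passed in only 2 of the 20 fits with a library left out. Of 20 tested members of the cartilage list 19 had a positive difference, against 51.3% of all genes, and their median effect was -0.26 in ACD and -1.42 in AD ears, against 0.01 for all genes in each model. Sox9 was the 1 member called for the difference. The mean level of the list was 3.23 in AD control 6, against 4.41 to 5.05 in the other AD controls. Fewer cells of a type and less RNA per cell cannot be told apart in such bulk tissue, and the amount of cartilage in each ear was not measured.

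Among the genes with the larger effect in AD ears in the upward direction, Osbpl9 (chr4:109061145-109202272, 100273) encodes a lipid transfer protein of the oxysterol-binding family. It was at 208, 230.0, 237, 197 and 212 CPM in ACD SB415286 libraries, against 200.2, 211, 213, 214 and 216 CPM in ACD controls. In the AD model its level was 317, 329.9, 371, 313 and 286 CPM with SB415286, against 208, 210.2, 209, 228 and 214 CPM in controls. Injected AD libraries all lay above the AD controls, and the ACD groups overlapped. The effects of 0.04 ± 0.07 in ACD and 0.60 ± 0.07 in AD ears differed by -0.56 ± 0.10 (adjusted p = 0.0386, edgeR), which held in 5 of 20 fits with a library left out. For 4931406C07Rik (chr9:15283337-15306448, 70984) the effects were -0.25 ± 0.14 and 0.89 ± 0.14 and the difference -1.14 ± 0.20 (adjusted p = 0.0386), held in 7 of 20 fits. Its levels were 12.1, 13.3, 8.69, 12.7 and 8.64 CPM in ACD SB415286 libraries, against 13.5, 13.5, 14.0, 11.9 and 13.1 CPM in ACD controls. With SB415286 the AD libraries held 28.0, 42.0, 47.4, 32.7 and 38.1 CPM, against 19.0, 22.6, 23.2, 17.7 and 18.8 CPM in AD controls. The ACD groups overlapped and the AD groups did not. Dynlt1c (chr17:6601779-6607891, 100040563) is 1 of several near-identical genes for a dynein light chain, and how reads were split among them is uncertain. It was at 77.3, 104, 95.3, 87.4 and 88.7 CPM in ACD SB415286 libraries, against 90.3, 95.3, 100.3, 88.1 and 93.6 CPM in ACD controls. For the AD model the values were 84.2, 72.5, 93.0, 63.1 and 70.4 CPM with SB415286, against 48.0, 45.4, 46.0, 38.5 and 45.5 CPM in controls. Again the ACD groups overlapped and the AD groups did not. Its effects were -0.05 ± 0.10 and 0.78 ± 0.10, a difference of -0.82 ± 0.14 (adjusted p = 0.0274, 11 of 20 fits). Summed over Dynlt1a, Dynlt1b, Dynlt1c and Dynlt1f, the level ran from 126 to 148 CPM in ACD SB415286 libraries and from 123 to 145 CPM in ACD controls, and from 114 to 147 CPM in AD SB415286 libraries and from 75.2 to 89.1 CPM in AD controls. The summed level thus overlapped between the ACD groups and did not overlap between the AD groups.

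The count of differing genes depended on which libraries entered the fit. It was 312 without AD SB415286 library 7, 234 without AD control 6, 2117 without both (1119 with a positive and 998 with a negative difference), and 1916 when ACD SB415286 library 5 was left out too. All 8 genes remained among those called in each of these 4 fits. These libraries were picked because they lay near the other group or high, which by itself draws the remaining groups apart, so these counts add no support. The count was 19 without AD SB415286 library 2, and 1 without ACD control 3. It was 3 without AD SB415286 library 3, AD control 5 or ACD control 4, 5 or 6, it was 4 without AD SB415286 library 4 or 6, ACD SB415286 library 7 or ACD control 1, and 5 without ACD SB415286 library 8.

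**Figure D2:**
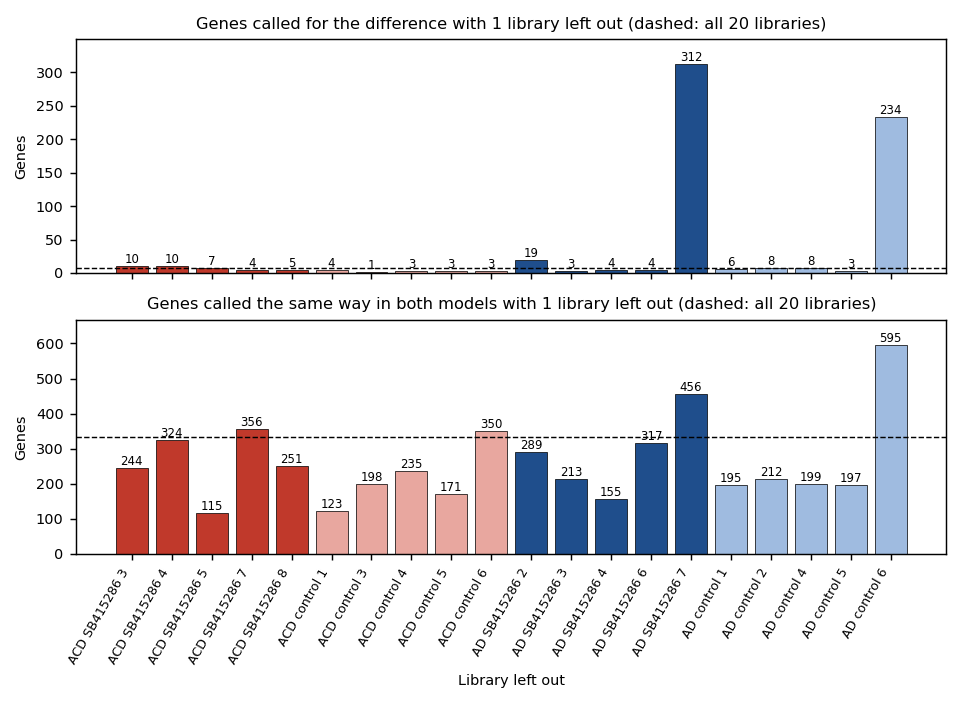
Number of genes called (linear axes from 0) for the difference between models (upper panel) and as moving the same way in both models (lower panel) with each of the 20 libraries left out in turn, with the number for all 20 libraries as a dashed line. The difference count rose to 312 and 234 without AD SB415286 library 7 and AD control 6, and the same-way count ran from 115 without ACD SB415286 library 5 to 595 without AD control 6.

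No gene met the rule for opposite movement, which asked for a called difference, opposite signs and an unadjusted p under 0.05 in each model. At an unadjusted p under 0.05 in each model alone, 45 genes (0.287%) had opposite signs and 378 (2.41%) had the same sign. By DESeq2 30 genes and by limma voom with quality weights 181 genes met the opposite rule. Among those closest to the threshold with a higher level in AD and a lower one in ACD ears was Epas1, which encodes the hypoxia-inducible factor HIF-2alpha. Epas1 was at 134, 151, 119, 132 and 127 CPM in ACD SB415286 libraries, against 164, 166, 134, 159 and 146 CPM in ACD controls. AD libraries were at 380.3, 351, 380.2, 366 and 359.6 CPM with SB415286, against 209, 284, 228, 265 and 310.0 CPM in controls. The AD groups did not overlap and the ACD groups did. The difference was -0.71 ± 0.14 (adjusted p = 0.0549, edgeR). The complement gene C2 was at -0.59 in ACD and 0.44 in AD ears (adjusted p = 0.0549), and the heat shock protein gene Hsph1 at -0.32 and 0.54 (adjusted p = 0.0756). Serpina11, Ugt1a6b and Abraxas2 had the same signs, with adjusted p of 0.0661, 0.0756 and 0.0964. With a higher level in ACD and a lower one in AD ears, G0s2, an inhibitor of the lipase Pnpla2, was at 0.65 and -0.60 (adjusted p = 0.0647) and Phospho1, a phosphatase of bone mineralisation, at 0.50 and -0.56 (adjusted p = 0.0549). Zfp651, Tceal3, Klf16 and Sdr39u1 completed that side, with adjusted p of 0.0549 to 0.107.

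In this fit more genes met the same-way rule than were called for the difference, 332 against 8. The tests are unlike in precision, with a median SE of 0.0989 for the mean effect and 0.198 for the difference. By limma voom the order was reversed, with 818 same-way and 1187 differing genes. It was also reversed without AD SB415286 library 7 and AD control 6 (737 and 2117). The mean of both effects passed for 952 genes (6.06%), 583 higher (3.71%) and 369 lower (2.35%), by the same edgeR test and adjustment. Of these, 332 (2.11% of all genes) also had the same sign and an unadjusted p under 0.05 in each model, 235 higher (1.5%) and 97 lower (0.618%). Taken alone within the same fit, the ACD effect passed for 5 genes (0.0318%), 3 higher (0.0191%) and 2 lower (0.0127%). The AD effect passed for 1461 genes (9.31%), 810 higher (5.16%) and 651 lower (4.15%). Fitted on its own libraries only, the AD effect passed for 190 genes. Among the 332 genes 147 were called for AD alone, 0 for ACD alone and 0 for the difference. The median size of the effect was 0.27 in ACD and 0.33 in AD ears for the 235 higher genes, and 0.30 and 0.35 for the 97 lower ones, against 0.12 and 0.18 for all genes. The rule itself selects larger effects, so this contrast with all genes adds no support. The AD effect was the larger in size in 168 of the 235, in 68 of the 97 and in 10269 of all 15700 genes. Across the 14487 genes of at least 1 CPM, which are not independent replicates, the effects correlated at r = 0.246, and 9466 of all genes (60.3%) had the same sign. The models share no library.

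**Figure D3:**
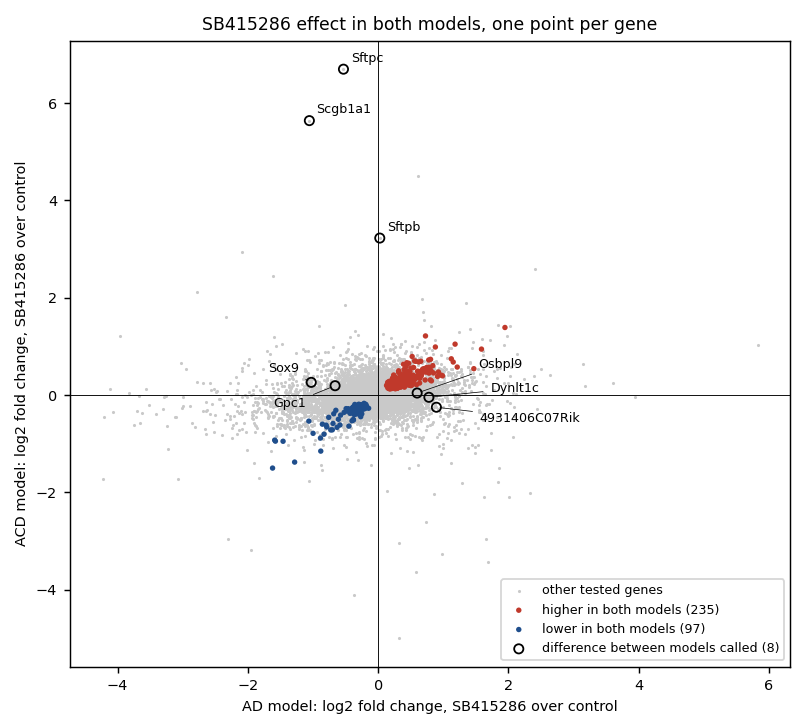
SB415286 effect (log2 fold change over control) in the ACD model (vertical axis) against the AD model (horizontal axis), 1 point for each of the 15700 genes tested, with the 235 genes called higher and the 97 called lower in both models in colour and the 8 genes called for the difference circled. The coloured points lie where both effects are above 0 or both below it because the rule asked for equal signs.

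The split of the same-way genes depended on the scaling, with 235 higher and 97 lower (70.8% higher) under TMM, 153 and 140 (52.2%) under upper quartile scaling, and 79 and 208 (27.5%) on log2(FPKM + 1). None of the 73 same-way genes checked singly, which include those named here, changed direction in any of the fits. They were chosen for equal signs in these same libraries, so their kept direction adds no support. The count was 115 without ACD SB415286 library 5 and 123 without ACD control 1. It was 155 without AD SB415286 library 4, 171 without ACD control 5 and between 195 and 213 without ACD control 3, AD SB415286 library 3 or AD control 1, 2, 4 or 5. Without AD control 6 it was 595, without that library and AD SB415286 library 7 together 737, and 581 without ACD SB415286 library 5 as well.

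Of 37 growth arrest and stress response genes, a list put together after values were seen, 13 rose in both models, against 1.5% of all genes, and none fell. Because the list was made with these values in view, that share adds no support. The median effect was 0.20 in ACD and 0.45 in AD ears. Gadd45a, which is induced by DNA damage and halts the cell cycle, was at 51.6, 60.1, 85.1, 66.4 and 61.8 CPM in ACD SB415286 libraries, against 26.6, 42.9, 36.2, 49.4 and 47.7 CPM in ACD controls. It was at 34.5, 39.8, 36.4, 37.1 and 22.3 CPM in AD SB415286 libraries, against 19.1, 23.1, 23.4, 20.1 and 24.7 CPM in AD controls. The ACD groups did not overlap, and the AD groups overlapped through library 7. The mean effect of Gadd45a was 0.65 ± 0.12 (adjusted p = 0.0107, edgeR). Its relative Gadd45b rose by 0.51 ± 0.09 (adjusted p = 0.0107). Ppp1r15a, also called GADD34, which ends the block on translation after stress, rose by 0.64 ± 0.14 (adjusted p = 0.0184), and Atf4, the transcription factor of that response, by 0.23 ± 0.06 (adjusted p = 0.0265). Sesn2, an antioxidant regulator, rose by 0.38 ± 0.08, the kinase gene Plk3 by 0.55 ± 0.13 and the phosphatase gene Dusp5 by 0.60 ± 0.13 (adjusted p = 0.0171, 0.0234 and 0.0184).

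Mdm2, the ubiquitin ligase that limits p53, was 1 of the genes whose groups did not overlap in either model. Its level was 121, 116, 159, 114 and 125 CPM in ACD SB415286 libraries, against 82.7, 91.9, 105, 101 and 111 CPM in ACD controls. AD SB415286 libraries were at 69.4, 59.5, 62.6, 61.9 and 65.6 CPM, against 51.9, 54.9, 49.8, 51.7 and 58.7 CPM in AD controls. Each injected library lay above each control of its model, and the mean effect was 0.31 ± 0.06 (adjusted p = 0.0158, edgeR). Among genes of the oxygen response, Hif1a rose by 0.35 ± 0.06, Vegfa, the endothelial growth factor, by 0.48 ± 0.12 and Hilpda, a lipid droplet protein gene, by 0.56 ± 0.13 (adjusted p = 0.00992, 0.025 and 0.0254). Arrdc4, which takes part in protein sorting, rose by 0.48 ± 0.09 (adjusted p = 0.00992). All of these belong to the list of 37.

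Tiparp, an ADP-ribosyltransferase that the aryl hydrocarbon receptor induces, and Nfkbia, the inhibitor of NF-kB that NF-kB itself induces, were also free of overlap in each model. Their promoters are shown because each gene is a textbook target of a factor with a known motif. The motif of that factor stands in capitals (RefSeq, GRCm38.p6, 250 bases before the gene's start, read on the gene's strand). Nfkbia lies on the minus strand with its window at chr12:55492648-55492897, and Tiparp on the plus strand with its window at chr3:65528197-65528446.
Nfkbia: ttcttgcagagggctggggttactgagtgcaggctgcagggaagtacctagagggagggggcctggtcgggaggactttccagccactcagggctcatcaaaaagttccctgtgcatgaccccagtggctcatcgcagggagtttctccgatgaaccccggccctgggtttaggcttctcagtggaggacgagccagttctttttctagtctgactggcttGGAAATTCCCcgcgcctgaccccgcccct
Tiparp: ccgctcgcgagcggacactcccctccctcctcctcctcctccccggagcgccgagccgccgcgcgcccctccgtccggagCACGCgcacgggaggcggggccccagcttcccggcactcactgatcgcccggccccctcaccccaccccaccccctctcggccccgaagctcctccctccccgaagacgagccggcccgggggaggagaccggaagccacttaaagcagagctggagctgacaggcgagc
The capitals mark a match to the kappa B letters, GGG, any pair of bases, then TTTCC, on the reverse strand in Nfkbia and to the xenobiotic response core GCGTG on the reverse strand in Tiparp. The Nfkbia window also holds an antioxidant response core match, TGACCCCGC, at bases -13 to -5 before the start, left in lower case there. Both strands were searched. An antioxidant core can overlap a cyclic AMP element, since both begin with TGAC, and each motif was counted by itself. The table held 192 of the 235 rising genes, with 252 promoter windows. The kappa B letters were in 2.38% of these windows, against 1.53% of 15747 windows of all tested genes, and the xenobiotic core in 47.2%, against 40.7%. The antioxidant response core TGACNNNGC was in 13.5%, against 11.6%, and the TCF/LEF core CTTTGAT of Wnt target genes in 3.57%, against 2.40%. The cyclic AMP element TGACGTCA was in 3.97%, against 2.25%, and the E-box CACGTG in 9.52%, against 7.65%. In 113 windows of the falling genes, the kappa B letters were in 0.885%, the xenobiotic core in 33.6% and the antioxidant core in 12.4%. There the TCF/LEF core was in 2.65%, the cyclic AMP element in 4.42% and the E-box in 6.19%. These shares describe letters in a window and not binding.

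Nfkbia was at 312, 299, 415, 294 and 309 CPM in ACD SB415286 libraries, against 215, 262, 258, 268 and 282 CPM in ACD controls. It was at 264, 273, 356, 294 and 331 CPM in AD SB415286 libraries, against 151, 172, 183, 208 and 262 CPM in AD controls. The lowest injected library exceeded the highest control in each model, by the narrowest margin in AD ears against control 6. The mean effect was 0.49 ± 0.10 (adjusted p = 0.0122, edgeR). Tiparp was at 128, 142, 165, 116 and 138 CPM in ACD SB415286 libraries, against 78.3, 103, 97.6, 103 and 115 CPM in ACD controls. AD SB415286 libraries held 84.9, 93.0, 104, 109 and 109 CPM of it, against 48.5, 58.7, 58.2, 60.4 and 72.8 CPM in AD controls. No injected library reached down to a control, with the closest pair in ACD ears, and Tiparp rose by 0.61 ± 0.08 (adjusted p = 0.00271). In all, 15 genes were higher and 4 lower with no overlap in either model, and 0 had no overlap in opposite directions. The groups did not overlap for 516 genes (3.29%) in ACD and 711 (4.53%) in AD ears. Besides Mdm2, Tiparp and Nfkbia, the 15 were Kcnk5, Zfp52, Ubxn8, Isca1, Eaf1, Slc25a28, Phc2, Cisd2, Carhsp1, Sh3glb1, Fbxo4 and Phf10, singled out after their values were seen. Of these, Isca1 (iron-sulphur cluster assembly), Cisd2 (an iron-sulphur protein) and Slc25a28 (mitoferrin-2, an iron importer of mitochondria) rose by 0.16 ± 0.04, 0.19 ± 0.04 and 0.40 ± 0.06. Phf10 did not meet the same-way rule.

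**Figure D4:**
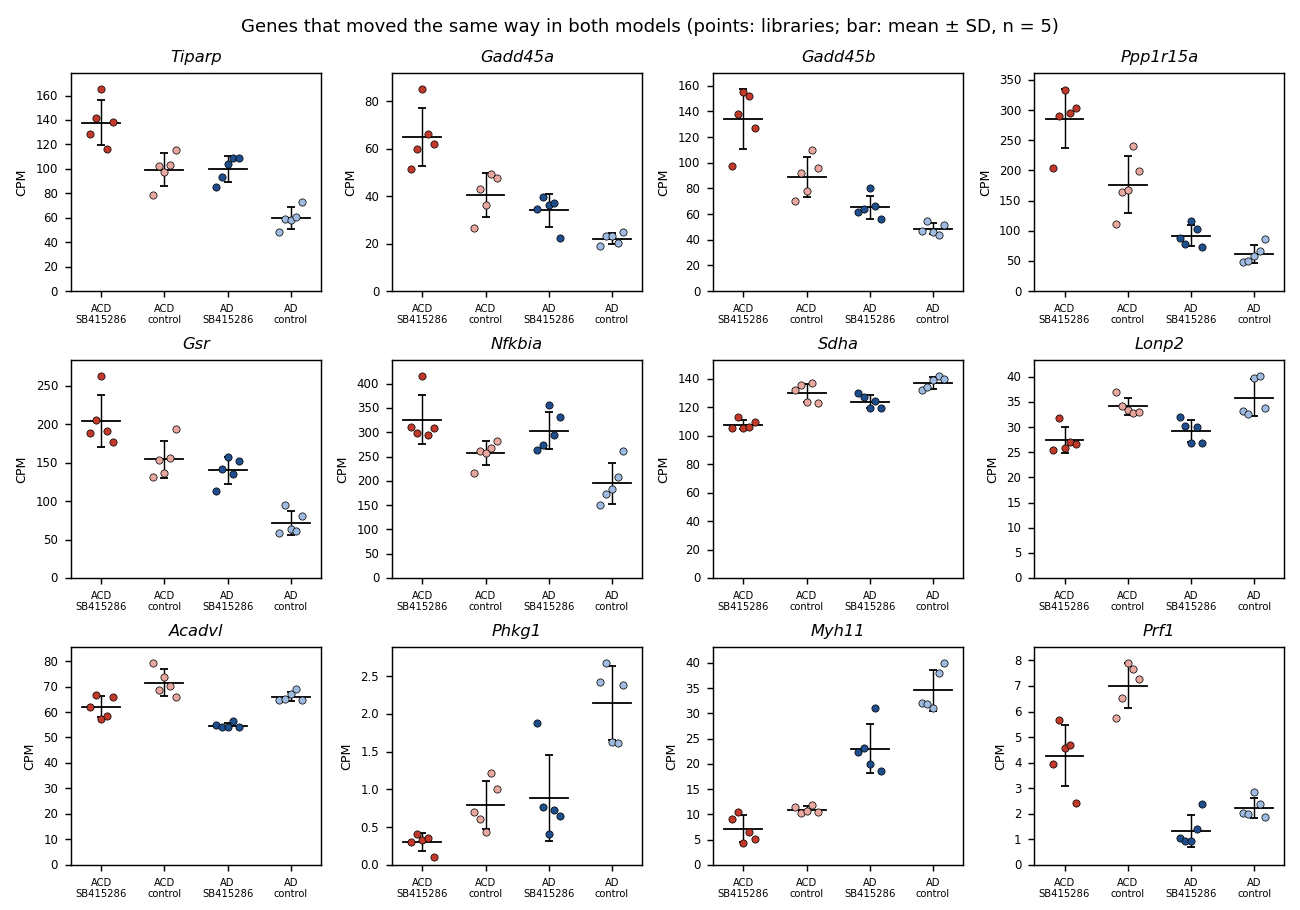
Normalised level (CPM, linear axes from 0) of 12 genes that moved the same way in both models, for each library (points) with the mean and SD of 5 libraries (bars). Tiparp, Gadd45a, Gadd45b, Ppp1r15a, Gsr and Nfkbia were higher, and Sdha, Lonp2, Acadvl, Phkg1, Myh11 and Prf1 lower, with SB415286 in each model, and AD SB415286 library 7 lay within the range of the AD controls for Gadd45a, Ppp1r15a and Prf1.

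Of 20 NRF2 antioxidant genes 6 passed for the mean effect, all higher (3.71% of all genes were). Of the 20, 3 (Gsr, Slc7a11 and Ftl1) rose in both models (1.5% of all genes did). The list's median was 0.14 in ACD and 0.34 in AD ears. Gsr (chr8:33653238-33698162, 14782), glutathione reductase, was at 188, 205, 262, 191 and 176 CPM in ACD SB415286 libraries, against 131, 153, 137, 156 and 194 CPM in ACD controls. In AD ears it was at 113, 142, 158, 135 and 152 CPM with SB415286, against 58.3, 94.5, 63.1, 60.8 and 80.8 CPM in controls. The AD groups did not overlap, while ACD control 6 lay among the injected ACD libraries. Gsr rose by 0.69 ± 0.10 (adjusted p = 0.00486, edgeR), and the difference between models, -0.56 ± 0.20, did not pass (adjusted p = 0.273). Slc7a11, the cystine importer, rose by 0.65 ± 0.15 and Ftl1, the ferritin light chain, by 0.33 ± 0.09 (adjusted p = 0.0217 and 0.04). Hmox1, heme oxygenase 1, passed for the mean effect (0.49 ± 0.11, adjusted p = 0.0184), but in ACD ears it was at 0.23 ± 0.15.

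The largest same-way rises by the naming rule were Fgfbp3, which carries fibroblast growth factors, Raet1e, a stress ligand seen by natural killer cells, and Nexmif and Zfp92. Fgfbp3 was at 5.25, 4.79, 8.69, 13.4 and 6.15 CPM in ACD SB415286 libraries, against 4.00, 3.56, 4.21, 3.90 and 4.22 CPM in ACD controls. AD libraries were at 26.7, 44.7, 29.7, 27.1 and 9.19 CPM with SB415286, against 7.78, 11.8, 7.44, 10.7 and 7.99 CPM in controls. The ACD groups did not overlap, and in AD ears library 7 was the 1 injected library within the range of the controls. The mean effect of Fgfbp3 was 1.26 ± 0.23 (adjusted p = 0.00992, edgeR), that of Raet1e 1.00 ± 0.15 (adjusted p = 0.00486), that of Nexmif 0.97 ± 0.22 and that of Zfp92 0.93 ± 0.18 (adjusted p = 0.0218 and 0.0122). Cstdc4, of a family of near-identical stefin genes whose reads may be shared, was at 0.93 ± 0.27 (adjusted p = 0.0466). The RNA-binding protein gene Msi1 rose by 0.91 ± 0.21, the retinol transporter gene Stra6 by 0.75 ± 0.20 and Nt5e, which encodes the adenosine-forming enzyme CD73, by 0.69 ± 0.13. Clec4d, a lectin receptor of neutrophils and macrophages, rose by 0.77 ± 0.21 (adjusted p = 0.0369), and Rpl39l and Zfp618 by 0.72 ± 0.19 and 0.70 ± 0.14. Of 23 neutrophil genes 2 passed for the mean effect, both higher (3.71% of all genes were). The neutrophil marker Ly6g averaged 24.9 CPM with SB415286 and 12.6 CPM in controls of the ACD model, and 0.155 and 0.131 CPM in the AD model. The markers Csf3r, Retnlg and S100a8 were at 0.20, 0.86 and 0.74 in ACD and at -0.14, -0.26 and -0.28 in AD ears. None of these markers, Ly6g included, passed in either model.

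On the falling side, fatty acid oxidation and peroxisome genes, a list of 46 put together after values were seen, had 7 members that fell in both models, against 0.618% of all genes, and none that rose. Here too the share adds no support, since the list was made with these values in view. The median was -0.18 in ACD and -0.10 in AD ears, and 3 of the 46 were above 0 in ACD and 20 in AD ears, against 51.1% and 50.8% of all genes. Acadvl, the very long chain acyl-CoA dehydrogenase, was at 61.9, 66.5, 57.4, 58.6 and 65.8 CPM in ACD SB415286 libraries, against 79.2, 68.8, 73.9, 70.1 and 65.8 CPM in ACD controls. It was at 55.0, 54.1, 53.9, 56.4 and 54.0 CPM in AD SB415286 libraries, against 64.6, 65.1, 67.1, 68.9 and 64.6 CPM in AD controls. The AD groups did not overlap, and the ACD groups did by a narrow margin. Acadvl fell by 0.24 ± 0.04 (adjusted p = 0.00704, edgeR). Lonp2, the protease of peroxisomes, had a mean effect of -0.31 ± 0.06 (adjusted p = 0.0107) and no overlap in either model. Acsl5, which activates fatty acids, was at -0.40 ± 0.08, Mccc1, of leucine breakdown, at -0.44 ± 0.08, Acad11 at -0.39 ± 0.10, Acox3, a peroxisomal oxidase, at -0.24 ± 0.06 and Pex11g, of peroxisome division, at -0.49 ± 0.12, all past the threshold.

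Sdha, a subunit of succinate dehydrogenase in the respiratory chain, was among the 4 falling genes with no overlap in either model. It was at 105, 113, 106, 106 and 109.6 CPM in ACD SB415286 libraries, against 132, 136, 124, 137 and 123 CPM in ACD controls. AD SB415286 libraries were at 129.8, 127, 119.7, 124 and 119 CPM, against 132, 134, 139, 142 and 140.2 CPM in AD controls. Every injected library lay below every control of its model. The effect was -0.27 ± 0.05 in ACD and -0.15 ± 0.05 in AD ears, with a mean of -0.21 ± 0.03 (adjusted p = 0.00704, edgeR). Of 80 tested nuclear genes of the respiratory chain 3 passed for the mean effect, all lower, a share near the 2.35% of all genes, and 2 fell in both models (Sdha and Ndufs1, at -0.20 ± 0.04). Ndufa9 was at -0.34 ± 0.09 in ACD and -0.14 ± 0.09 in AD ears, and the list's median was 0.03 in ACD and -0.10 in AD ears. The other 2 genes with no overlap were Zscan20 and Napepld. Napepld makes N-acylethanolamines and Naaa degrades them, and they fell with mean effects of -0.37 ± 0.09 and -0.71 ± 0.18 (adjusted p = 0.0222 and 0.032).

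The largest same-way fall by the naming rule was that of Phkg1, the catalytic subunit of muscle phosphorylase kinase, which starts glycogen breakdown. Phkg1 was at 0.300, 0.412, 0.330, 0.354 and 0.106 CPM in ACD SB415286 libraries, against 0.699, 0.602, 0.432, 1.22 and 1.01 CPM in ACD controls. It was at 1.87, 0.770, 0.408, 0.724 and 0.644 CPM in AD SB415286 libraries, against 2.42, 2.67, 1.63, 1.61 and 2.38 CPM in AD controls. The ACD groups did not overlap, and in AD ears SB415286 library 2 lay within the range of the controls. Its mean effect was -1.33 ± 0.27 (adjusted p = 0.0153, edgeR). Skeletal muscle genes had medians of -0.46 in ACD and -0.98 in AD ears, and the AD median was -0.36 without AD SB415286 library 7 and AD control 6. Their mean level was lowest in AD SB415286 library 7 among the AD libraries (2.02, against 4.28 to 5.52 in the other injected AD libraries). In ACD ears it ran from 1.92 to 4.41 (median 4.27) with SB415286, against 3.57 to 4.69 in controls. The part of muscle in the fall of Phkg1 was not tested. Of 17 glycogen genes 3 passed for the mean effect, all lower (2.35% of all genes were). Of the 17, 2 fell in both models (0.618% of all genes did). Besides Phkg1, Pygb, a glycogen phosphorylase, was at -0.31 ± 0.09 (adjusted p = 0.0427), and Ppp1r3c, which brings a phosphatase to glycogen, was at -0.28 ± 0.27 in ACD and -1.84 ± 0.28 in AD ears, a difference of 1.56 ± 0.39 that did not pass (adjusted p = 0.122).

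Il1f10, which encodes the interleukin-1 family member IL-38, was at 0.450, 0.772, 0.935, 0.658 and 1.27 CPM in ACD SB415286 libraries, against 2.10, 1.51, 2.37, 0.912 and 2.21 CPM in ACD controls. In AD ears it was at 2.09, 1.35, 2.19, 1.86 and 1.06 CPM with SB415286, against 1.52, 3.34, 2.59, 4.68 and 3.61 CPM in controls. The groups overlapped in each model through 1 low control, and Il1f10 had a mean effect of -1.02 ± 0.23 (adjusted p = 0.0197, edgeR). Prf1, which encodes perforin, was at 3.95, 5.66, 4.57, 4.71 and 2.44 CPM in ACD SB415286 libraries, against 5.74, 6.53, 7.88, 7.65 and 7.29 CPM in ACD controls. It was at 1.05, 0.915, 0.918, 1.40 and 2.39 CPM in AD SB415286 libraries, against 2.04, 2.00, 2.83, 2.39 and 1.85 CPM in AD controls. The ACD groups did not overlap, and in AD ears library 7 lay among the controls. Prf1 had a mean effect of -0.72 ± 0.17 (adjusted p = 0.0256) and the receptor gene Cd96 one of -0.72 ± 0.17 (adjusted p = 0.0233). Of 21 T cell genes 2 passed for the mean effect, both lower (2.35% of all genes were). Neither met the same-way rule (Cd247 at -0.48 ± 0.13 and Cd3g at -0.83 ± 0.23). The T cell median was -0.20 in ACD and -0.68 in AD ears. AD SB415286 library 7 had a mean T cell level of 3.40, against 1.70 to 2.24 in the other injected AD libraries, and AD control 6 had 2.39, against 2.75 to 3.55 in the other controls. Whether fewer T cells account for these falls was not tested. Sectm1a (-0.73 ± 0.19), the matrix genes Igsf10 (-0.80 ± 0.18) and Efemp1 (-0.71 ± 0.20), Apol7a (-0.89 ± 0.16), the alcohol dehydrogenase gene Adh6a (-0.89 ± 0.24), Wdr86 (-0.82 ± 0.21) and the kinesin gene Kif19a (-0.64 ± 0.17) completed the 12 largest falls. Apol7a and Adh6a belong to families of similar genes, and shared reads were not examined.

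Smooth muscle genes, a list of 15 put together after values were seen, had 7 members past the threshold for the mean effect, all lower (2.35% of all genes were). Of the 15, 3 (Myh11, Tagln and Mylk) fell in both models (0.618% of all genes did). Shares of a list made with these values in view add no support. The medians were -0.28 in ACD and -0.59 in AD ears. Myh11, the smooth muscle myosin, was at 9.16, 10.5, 4.35, 6.48 and 5.14 CPM in ACD SB415286 libraries, against 11.5, 10.3, 10.7, 11.8 and 10.4 CPM in ACD controls. AD SB415286 libraries were at 22.3, 23.2, 19.9, 31.1 and 18.5 CPM, against 32.0, 31.8, 31.1, 37.9 and 39.9 CPM in AD controls. ACD SB415286 library 4 reached into the range of its controls and AD SB415286 library 6 lay level with the lowest AD control, and the other 8 injected libraries lay below. Myh11 had a mean effect of -0.60 ± 0.13, Tagln -0.47 ± 0.12 and the myosin kinase gene Mylk -0.33 ± 0.08 (adjusted p = 0.0186, 0.0323 and 0.0314). The list's mean level was 3.22 to 4.09 in ACD SB415286 libraries and 3.88 to 4.13 in ACD controls, and 4.17 to 4.54 and 4.70 to 5.05 in AD ears, so that the list level overlapped in ACD and not in AD ears. The amount of vessel or muscle wall in the ears was not measured.

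Transcripts of the target and of its best known pathway did not pass for the difference. Gsk3a, the transcript of 1 of the GSK3 kinases, was at 172, 179, 191, 182 and 184 CPM in ACD SB415286 libraries, against 158, 159.6, 159.8, 158 and 162 CPM in ACD controls. In AD ears it was at 122, 142, 155, 156 and 150.1 CPM with SB415286, against 147, 147, 142, 151 and 156 CPM in controls. The ACD groups did not overlap and the AD groups did, and the difference of 0.22 ± 0.09 did not pass (adjusted p = 0.296, edgeR). Gsk3b differed by -0.07 ± 0.15, Ctnnb1, the gene of beta-catenin, by -0.16 ± 0.10 and the Wnt feedback gene Axin2 by 0.31 ± 0.28 (adjusted p = 0.886, 0.534 and 0.677, edgeR). Axin2 was below 0 in each model, at -0.10 ± 0.20 in ACD and -0.41 ± 0.19 in AD ears, and passed in neither. Of 15 genes of GSK3 and the beta-catenin destruction complex none passed for the difference. Apc2 was the 1 to pass for the mean effect (-0.91 ± 0.26, adjusted p = 0.0474 by edgeR), and 2.35% of all genes passed lower. SB415286 acts on the protein, so transcripts of the kinases are no check of its action. Of 23 Wnt target and feedback genes none passed for the difference and 2 passed for the mean effect, both lower (2.35% of all genes were). These were Wif1, a secreted Wnt inhibitor, at -0.32 ± 0.30 in ACD and -1.36 ± 0.30 in AD ears, and Tnfrsf19, at -0.25 ± 0.20 and -0.79 ± 0.19. The list's median was 0.00 in ACD and -0.26 in AD ears, and 18 of the 23 had a positive difference, against 51.3% of all genes.

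Some lists had medians of opposite sign in the models, with no member called for the difference. Lists are described here and were not tested as sets. Hair shaft genes had a median of -0.24 in ACD and 1.18 in AD ears, melanocyte genes -0.06 and 0.64, kallikreins and their inhibitors -0.19 and 0.52, and cornified envelope genes -0.18 and 0.15. S100a3, a protein of the hair cuticle, was at 0.05 ± 0.40 in ACD and 2.08 ± 0.38 in AD ears, and the difference of -2.03 ± 0.55 did not pass (adjusted p = 0.162). Mitf, the transcription factor of melanocytes, was at -0.06 ± 0.13 and 0.58 ± 0.12 (difference -0.64 ± 0.18, adjusted p = 0.171), and Klk10, a protease gene of the epidermis, at 0.06 ± 0.19 and 0.87 ± 0.19 (adjusted p = 0.246 for the difference).

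MHC class II genes had medians of -0.32 in ACD and -1.15 in AD ears, type 2 inflammation genes 0.00 and -0.78, and interferon-gamma response genes -0.17 and -0.48, again with no member called for the difference. Ciita, which switches on MHC class II genes, was at -0.64 ± 0.37 in ACD and -1.88 ± 0.41 in AD ears and differed by 1.24 ± 0.55 (adjusted p = 0.364). Cd207, the lectin of Langerhans cells, was at -0.04 ± 0.31 and -2.02 ± 0.33 (adjusted p = 0.0964 for the difference), and Ear2, an eosinophil ribonuclease with close copies, at 0.13 ± 0.49 and -2.51 ± 0.45 (adjusted p = 0.123). In the other direction, macrophage and monocyte genes had -0.22 and 0.19 and complement genes -0.24 and 0.20. Neutrophil chemokines had 0.74 in ACD and 0.23 in AD ears, and all 9 tested members were above 0 in ACD and 6 in AD ears, again against 51.1% and 50.8% of all genes. Cxcl3, 1 of them, was at 0.99 ± 0.43 and 0.59 ± 0.44. AD SB415286 library 7 held 65.2 CPM of Cxcl3, against 7.05 to 19.5 CPM in the others of its group and 9.56 to 24.5 CPM in AD controls. Without AD SB415286 library 7 and AD control 6, the AD medians were -1.89 for MHC class II, -1.59 for type 2 inflammation, -1.36 for interferon-gamma response and -0.57 for neutrophil chemokines. Neutrophil genes then had -0.48, antimicrobial genes -0.22 and macrophage genes -0.07, each on the other side of 0 from the value with all libraries. Members then called for the difference were 10 of 13 for MHC class II, 9 of 24 for type 2 inflammation and 16 of 24 for interferon-gamma response. They were 3 of 9 for neutrophil chemokines and 13 of 20 for cartilage genes, against 13.4% of all genes in that fit. Of the 9 type 2 members 8 had a positive and 1 a negative difference. Both libraries were picked because they lay near the other group, so these counts add no support.

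**Figure D5:**
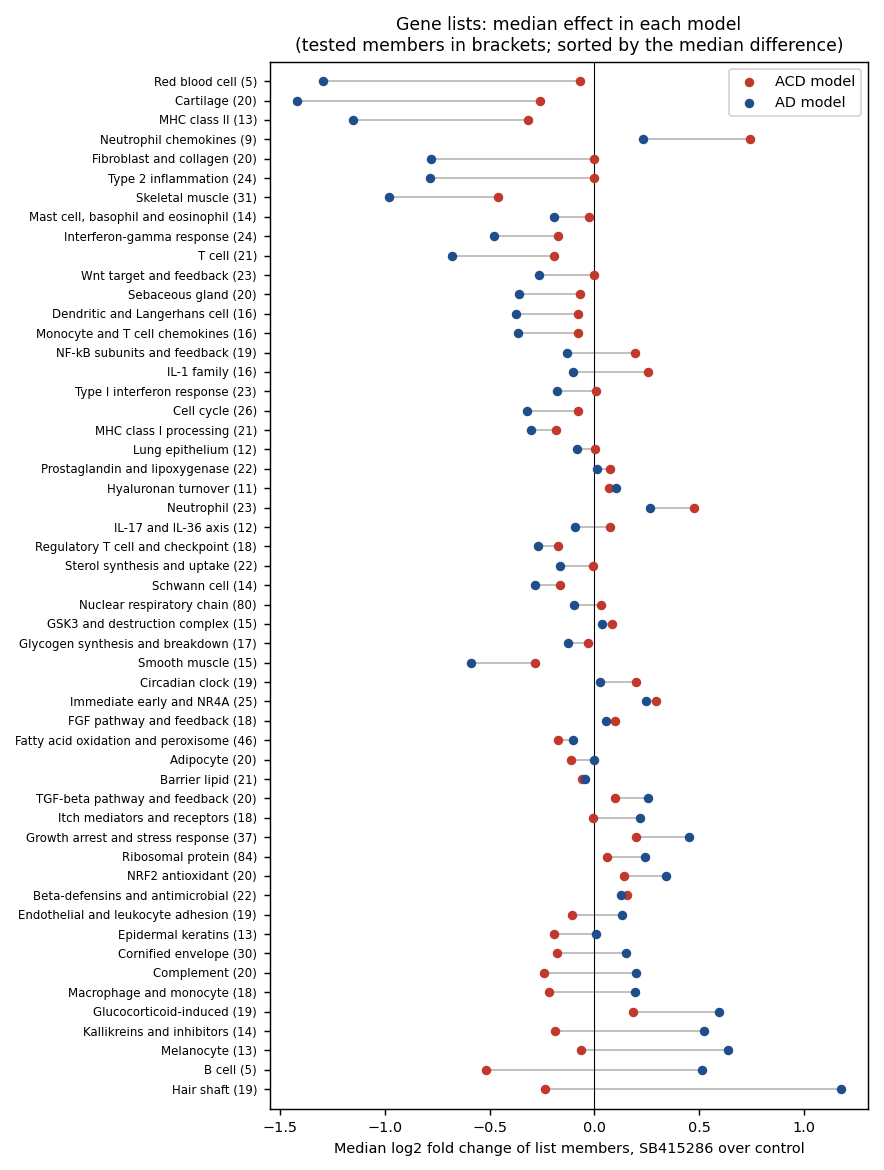
Median SB415286 effect (log2 fold change over control) of the tested members of each gene list in the ACD model and in the AD model, with the number of tested members in brackets and lists sorted by their median difference. Cartilage, MHC class II and type 2 inflammation genes lie further below 0 in the AD model, and hair shaft and melanocyte genes lie above 0 in the AD model and slightly below it in the ACD model.

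Immediate early and NR4A genes were near equal, with medians of 0.29 in ACD and 0.25 in AD ears. Of 25 such genes 6 passed for the mean effect, all higher (3.71% of all genes were). Of the 25, 2 rose in both models (1.5% of all genes did). Fosl2 rose by 0.40 ± 0.09 (adjusted p = 0.0184, edgeR) and Klf6 by 0.33 ± 0.09 (adjusted p = 0.0438). Ier3 was at 0.73 ± 0.15 in ACD and 0.24 ± 0.15 in AD ears, Junb at 0.43 ± 0.12 and 0.18 ± 0.12, and Nr4a3 at 0.53 ± 0.44 and 2.50 ± 0.46. Nr4a3 was at 129.8, 16.0, 94.3, 18.6 and 24.7 CPM in AD SB415286 libraries, against 8.35, 8.06, 8.74, 8.88 and 16.1 CPM in AD controls, with libraries 2 and 4 far above the other injected libraries. Beta-defensin and antimicrobial genes had medians of 0.16 and 0.13, and 5 of 22 passed for the mean effect, all higher (3.71% of all genes were). Wfdc17 was the 1 of 22 to rise in both models (1.5% of all genes did). Slpi, an antiprotease, was at 0.46 ± 0.22 in ACD and 1.15 ± 0.23 in AD ears, Wfdc17 at 0.54 ± 0.20 and 0.80 ± 0.20, and Defb4 at 0.39 ± 0.33 and 1.65 ± 0.32. Fibroblast growth factor genes split, with Fgfr1 (0.40 ± 0.07) and Etv4 (0.49 ± 0.11) higher and Fgfr3 (-0.48 ± 0.10) and Fgfr4 (-1.03 ± 0.23) lower in the mean effect. Skil (0.27 ± 0.07) and Smad4 (0.31 ± 0.09) of the TGF-beta list were higher, and Cnp (-0.32 ± 0.09) and Ngfr (-0.55 ± 0.16) of the Schwann cell list lower. Cemip, a hyaluronan-degrading protein gene, was at 0.22 ± 0.17 in ACD and 1.23 ± 0.17 in AD ears (adjusted p = 0.104 for the difference).

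Fibroblast and collagen genes had medians of 0.00 in ACD and -0.78 in AD ears, and glucocorticoid-induced genes 0.18 and 0.60, with no member called for the difference. NF-kB subunit and feedback genes were at 0.19 and -0.13, and Nfkbia was the 1 of 19 to rise in both models (1.5% of all genes did). Ribosomal protein genes were at 0.06 and 0.24, and 60 of 84 were above 0 in ACD and 81 in AD ears, against 51.1% and 50.8% of all genes. None of the other lists in the plot of medians had a member called for the difference. Taf15 and Elp2, an RNA-binding protein gene and a subunit gene of the Elongator complex, were the genes besides the 3 lung transcripts called for the ACD effect in the fit of all groups, at -0.38 ± 0.06 and -0.35 ± 0.06 (adjusted p = 0.0116 and 0.0414, edgeR). In AD ears they were at 0.01 ± 0.06 and -0.06 ± 0.06, and the differences did not pass (adjusted p = 0.0756 and 0.188).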

How the data were processed

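RNA from 20 mouse ear samples was sequenced. Per the submitters' processing notes, HISAT, Bowtie2 2.2.5 and RSEM 1.2.8 were used, and the builds named are GRCm38.p6 and, for human, GRCh38.p13, with no role given. The authors deposited, per model, a table of expected counts as RSEM estimates them, which need not be whole, and of FPKM, which divides by length and depth. A further 20 TPM columns were not used. After rounding to whole numbers, the 4 groups of 5 were fitted together in edgeR 4.0.16 (R 4.3.3) by the robust quasi-likelihood test after filterByExpr and TMM scaling, with Benjamini-Hochberg adjustment over 15700 genes. Contrasts were the ACD effect minus the AD effect, the mean of both, and each alone. FPKM, as deposited, served an alternative in limma 3.58.1 on log2(FPKM + 1) and log2(FPKM + 0.1). DESeq2 1.42.0, limma voom, other scalings and filters and left-out libraries were the other alternatives.

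Genes moving the same way had an adjusted p under 0.05 for the mean effect, equal signs and an unadjusted p under 0.05 in each model. The genes named were the 4 target genes, the 12 highest and 12 lowest called in each direction of at least 1 CPM (the smallest p where few were called), 6 per direction for opposite signs, and up to 4 called members (otherwise 2) per list. The genes with no overlap in both models, further called list members, and 3 of 53 lists were added after values were seen. Members and lists were chosen with earlier results of these data known. On simulated data the test recovered 68% of 200 genes given a log2 change of 1 for the difference, and 91.5% for the mean effect. In each run 10 unchanged genes were called as well. The simulated libraries had a single spread per gene and no library set apart, so these shares need not hold for the real libraries. The intervals of counts and the p-values do not cover differences in how the 2 tables were made. Promoters came from RefSeq (GRCm38.p6), in which 18778 of 18835 gene identifiers were found.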

Additional observations from a re-analysis of the deposited data

Results flagged for a closer look

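In 41 of 512 groups of 5 libraries, over the 4 groups of each gene named in the text with values, 1 library lay far from the other 4 by Dixon's criterion (0.71 for 5 values), which chance alone meets in about 1 in 20 groups. AD SB415286 library 7 was high for Naaa (71.3 CPM, against 29.1 to 33.3 CPM in the others of its group), Cxcl3 (65.2 CPM), Sectm1a (34.3 CPM), Cstdc4 (24.2 CPM), Cd3g (8.09 CPM), Ciita (7.17 CPM), Fgfr4 (1.56 CPM) and Tceal3 (1.10 CPM). It was low for Phf10 (87.9 CPM), Kcnk5 (6.71 CPM) and Nexmif (2.62 CPM). AD control 6 was high for Fgfr1 (296 CPM) and Nr4a3 (16.1 CPM) and low for Wif1 (121 CPM) and Sdr39u1 (17.3 CPM). ACD SB415286 library 5 was high for Nfkbia (415 CPM), Nt5e (208 CPM), Mdm2 (159 CPM), Hilpda (131 CPM), Scgb1a1 (21.2 CPM) and Sftpc (12.2 CPM).

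Other injected libraries that stood apart were ACD library 4 for Lonp2 (31.8 CPM) and Etv4 (30.4 CPM), ACD library 8 for Klf16 (38.1 CPM), Rpl39l (5.46 CPM) and S100a3 (2.91 CPM), AD library 2 for Slc7a11 (81.5 CPM) and Phkg1 (1.87 CPM), and AD library 4 for Elp2 (41.1 CPM). Among controls they were ACD control 1 for Kcnk5 (3.75 CPM) and Sftpc (0 CPM), ACD control 4 for Sectm1a (45.9 CPM), ACD control 5 for Phf10 (63.6 CPM) and Slc25a28 (42.9 CPM), and ACD control 6 for Cisd2 (64.0 CPM) and Cd247 (10.2 CPM). In the AD model they were control 1 for Ear2 (40.6 CPM) and control 5 for Junb (329 CPM), Arrdc4 (148 CPM), Elp2 (51.6 CPM) and Dynlt1c (38.5 CPM).

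The SB415286 effect differed between the models, by the edgeR test of the interaction, for Sftpc (7.23 on the log2 scale, ACD minus AD), Scgb1a1 (6.70), Sftpb (3.20), Sox9 (1.29), Gpc1 (0.85), Osbpl9 (-0.56), Dynlt1c (-0.82) and 4931406C07Rik (-1.14).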

How the results depend on the processing

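Counts of called genes depended on the tool and the libraries, and the cause was not tested. For the difference between models 8 genes were called, and 14 under upper quartile scaling, 5 with no filter on low counts, 1187 by limma voom with quality weights, 178 by DESeq2, and 12 on log2(FPKM + 1) or log2(FPKM + 0.1). No called difference changed sign, though these genes were chosen on the same libraries. Having no filter ended the calls of Sox9, 4931406C07Rik and Osbpl9, and the FPKM fits those of Sox9 and 4931406C07Rik. The mean effect passed for 1703 genes by DESeq2 and 3588 by voom, against 952. The ACD effect passed for 58 by DESeq2, 69 by voom and 8 on log2(FPKM + 1), against 5. The AD effect passed for 2183 by DESeq2 and 4440 by voom, and for 190 when each model was fitted alone, against 1461. Same-way genes numbered 332, and 818 by voom, which held 308 of the 332. Opposite-way genes numbered 0, and 2 under upper quartile scaling, 30 by DESeq2, 181 by voom, 1 on log2(FPKM + 1) and 2 on log2(FPKM + 0.1).

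Leaving out 1 library gave 1 to 312 genes for the difference, 300 to 2457 for the mean effect, 3 to 7 for ACD, 566 to 3302 for AD, 115 to 595 for the same way and 0 to 67 for the opposite way. The 332 same-way genes kept their direction in all 20 of these fits, which their choice on the same libraries makes likely. Between 113 and 319 of them were still called the same way. Without AD SB415286 library 7 and AD control 6 the counts were 2117, 4020, 5, 5365, 737 and 194 in that order. Without ACD SB415286 library 5 too, a fit chosen after seeing the data, they were 1916, 3756, 3, 5500, 581 and 133.

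Whether equal library numbers mark paired samples is not known, and the few numbers shared within a model cannot settle it. The deviations of same-numbered libraries correlated at -0.157 to 0.163 in the ACD model and -0.170 to 0.229 in the AD model, and 2 of 12 libraries correlated best with their own number, as a hint from the data. With a replicate block, which left 4 residual degrees of freedom, 1 gene was called for the difference, 0 for the mean effect, 0 for ACD, 2 for AD, 0 for the same way and 1 for the opposite way.

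Totals of 18.2 to 20.9 M counts leave genes of a few counts, such as Sftpc in 3 groups, known only roughly, so the size of its fold change depends on the prior count. Dose, model and table cannot be told apart, and each group is 5 ears.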
